A study of Triticum aestivum with 4 samples.

Results

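GLU1A (LOC780595, also TaGlu1a) encodes a beta-glucosidase of bread wheat, Triticum aestivum. Signals were taken from the probe sets of 1 transcript cluster that includes it, the group of related sequences from which the Affymetrix wheat array drew its probes. Members were selected by probe set ID, together with any probe set whose annotated symbol or synonym was GLU1A, GLU1B, GLU1C or GLU1D. This gave 2 of the 61115 wheat probe sets, Ta.4601.1.S1_s_at from sub-cluster 1 and Ta.4601.2.S1_at from sub-cluster 2. Only the second carries the gene name in the platform annotation, and the first carries none. The gene was chosen from the difference of Ta.4601.2.S1_at between the genotypes of the series, so that the differences of the cluster between genotypes are given as a description, with no test.

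Messenger RNA came from developing seed collected 5 days after anthesis from plants grown in the field. The genotypes were AC Domain, a Canadian hard red spring wheat, and RL4452, the parents of a mapping population, with 2 biological replicates each and 1 array per replicate. Both were grown under the same conditions, as rows of 1.47 m in 3 field replications, and no other treatment is given in the labels. A 2 mL tube of whole developing seeds gave each extract, so that endosperm, embryo and maternal seed coats were measured together.

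The GLU1 enzymes of wheat are plastid beta-glucosidases. Their known substrates are the glucosides of benzoxazinoids, indole-derived defence compounds of grasses. The glucosides are stored apart from the enzyme, and tissue damage brings them together, so that the toxic aglycones are released. The enzyme is best known from young seedlings, where it is abundant.

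Ta.4601.2.S1_at, the probe set named GLU1A, gave an intensity of 215 in AC Domain replicate 1 and 170.0 in replicate 2, and of 921 and 934 in the RL4452 replicates. Both RL4452 arrays were bright and nearly equal, and both AC Domain arrays were dimmer and further apart from each other. On the log2 scale the level was 7.58 ± 0.24 in AC Domain and 9.86 ± 0.01 in RL4452 (SD, n = 2). The difference, RL4452 minus AC Domain, was 2.28, or 4.85-fold.

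Ta.4601.1.S1_s_at showed the opposite order. AC Domain replicates 1 and 2 gave intensities of 4978 and 5517, and those of RL4452 gave 3097 and 3427. Both RL4452 arrays lay below both AC Domain arrays, and replicate 2 was the brighter array in each genotype. On the log2 scale the level was 12.36 ± 0.10 in AC Domain and 11.67 ± 0.10 in RL4452 (SD, n = 2). The difference was -0.69, so that the signal was 1.61-fold higher in AC Domain. The suffix s_at marks a probe set whose probes match several transcripts of the array's design, and the suffix at marks one designed to a single transcript. Which transcripts Ta.4601.1.S1_s_at measures is not given in the files used here, and the brightness of different probe sets cannot be compared as an amount of transcript.

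**Figure D1:**
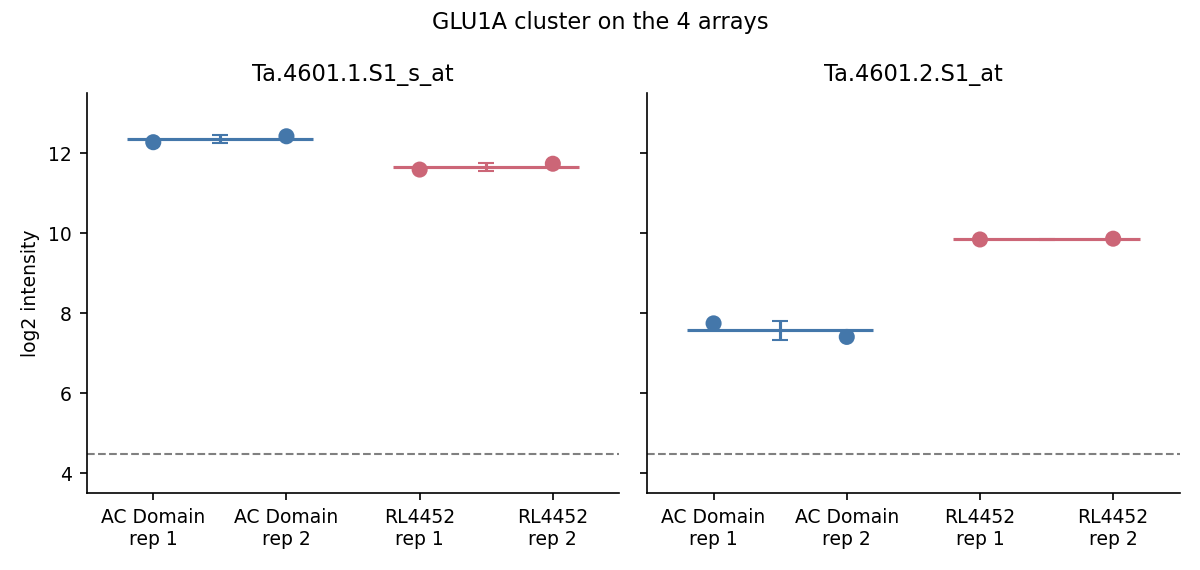
Log2 intensity of both probe sets of the GLU1A cluster on each of the 4 arrays, with AC Domain in blue and RL4452 in red. Points are arrays, horizontal lines are means with error bars of 1 SD (n = 2), and the dashed line is the 95th percentile of the negative controls (4.48). Ta.4601.1.S1_s_at was lower in RL4452 (11.67 against 12.36) and Ta.4601.2.S1_at was higher (9.86 against 7.58).

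Both probe sets lay well above the background on all 4 arrays. The 23 negative control probe sets had a 95th percentile of 22.3 in intensity (4.48 as log2), and the lowest value in the cluster was 170.0, in AC Domain replicate 2. The smallest gap between an AC Domain and an RL4452 array was 2.10 for Ta.4601.2.S1_at and 0.54 for Ta.4601.1.S1_s_at (log2). The larger gap between arrays of 1 genotype was 0.34 for the first and 0.15 for the second, in AC Domain in both cases. In both probe sets the genotypes lay further apart than the replicates. For Ta.4601.2.S1_at this is no independent result, since the gene was chosen by its difference on these arrays.

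In both members the arrays of the genotypes did not overlap, as in 39.9% of all wheat probe sets. Both RL4452 arrays lay above both AC Domain arrays in 24.0% of all probe sets, and below them in 15.9%. The difference of Ta.4601.2.S1_at was the 119th highest of 61115, and that of Ta.4601.1.S1_s_at was the 2883rd lowest. The median difference over all wheat probe sets was 0.05, and 58.4% of the differences were above 0. Seed was extracted in bulk, so that fewer cells of a type and less RNA per cell cannot be told apart.

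The size of each difference was similar within both replicate numbers, on the same arrays from which the gene was chosen. Within replicate 1, RL4452 minus AC Domain was 2.10 for Ta.4601.2.S1_at, and within replicate 2 it was 2.46 (log2). In intensity these were ratios of 4.28 and 5.49. For Ta.4601.1.S1_s_at the difference was -0.68 within replicate 1 and -0.69 within replicate 2. As intensities, AC Domain was 1.61 times as bright as RL4452 in both. The replicate numbers also mark the 2 projects named in the instrument's run files, so that these are values within each project. The run file of AC Domain replicate 2 names fluidics module 1, and those of the other arrays name module 2. The run file of RL4452 replicate 2 records an aborted wash. Without that array the differences were 2.27 and -0.76 for Ta.4601.2.S1_at and Ta.4601.1.S1_s_at.

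**Figure D2:**
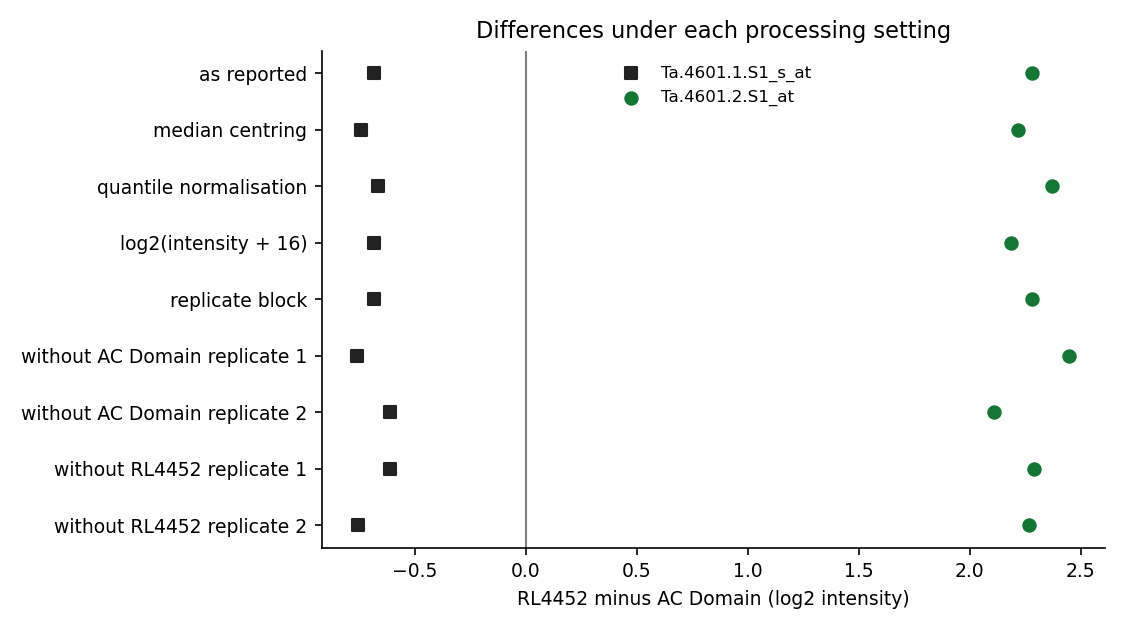
Difference in log2 intensity, RL4452 minus AC Domain, for both probe sets of the GLU1A cluster (horizontal axis), as reported and under each alternative scaling, pseudocount, block or omitted array (vertical axis). Ta.4601.2.S1_at lay between 2.11 and 2.45 and Ta.4601.1.S1_s_at between -0.76 and -0.61 in all 9 settings shown.

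Setting both probe sets against each other on the same array removes only a log2 shift that is equal for both. Ta.4601.1.S1_s_at minus Ta.4601.2.S1_at was 4.53 and 5.02 in the AC Domain replicates and 1.75 and 1.88 in those of RL4452 (log2, replicates 1 and 2). The distance was far smaller on both RL4452 arrays than on either AC Domain array. Its mean was 4.78 ± 0.34 in AC Domain and 1.81 ± 0.09 in RL4452 (SD, n = 2). It therefore differed by -2.96 between the genotypes, with -2.78 within replicate 1 and -3.14 within replicate 2, which is a 7.80-fold change in the ratio of both signals. This ratio shows unequal change of the probe sets and not which transcript changed. A difference of sequence under the probes and a difference of transcript level cannot be told apart in these files.

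How often the sub-clusters of a cluster part in this way was read from all clusters of the array that, like the GLU1A cluster, had exactly 2 probe sets from 2 sub-clusters. There were 3091 such clusters, and in 1621 of them both probe sets were above the negative control level on at least 2 arrays. Among these 1621, the differences had opposite signs in 31.6%. In 40 clusters (2.47%) the arrays of the genotypes did not overlap in either probe set and the directions were opposite. The GLU1A cluster had the largest distance between its differences of these 40 (2.96). This rank is a description only. The gene was chosen for a large difference, and these 40 clusters were picked by the pattern that the GLU1A cluster itself shows. Of the 1621 clusters, 130 had exactly 1 s_at probe set, as the GLU1A cluster does. Among these 130, signs were opposite in 35.4%, and 4 (3.08%), the GLU1A cluster included, were opposite with no overlap of arrays.

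Over the 1621 clusters the median distance between both differences was 0.23, and a distance as large as that of the GLU1A cluster was found in 6 clusters, the GLU1A cluster included. In the other 5 at least 1 probe set had overlapping arrays or both moved the same way. The nearest was Ta.30560, with 5.19 and 1.84. In Ta.7326 the differences were -0.24 and 3.21. A difference of at least 2 in 1 of the probe sets was found in 41 clusters, and in 2 of these, the GLU1A cluster and Ta.9228, the partner moved the other way with no overlap of arrays. Ta.9228 had -2.59 and 0.21. Ta.30560, Ta.7326 and Ta.9228 carry no gene name here and were chosen after their values were seen. The place of the GLU1A cluster among the 6 and the 41 also rests on the difference for which the gene was chosen. The differences of the lower-numbered and higher-numbered sub-clusters correlated at r = 0.587 over the 1621 clusters, which share the 4 arrays and are not independent replicates.

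**Figure D3:**
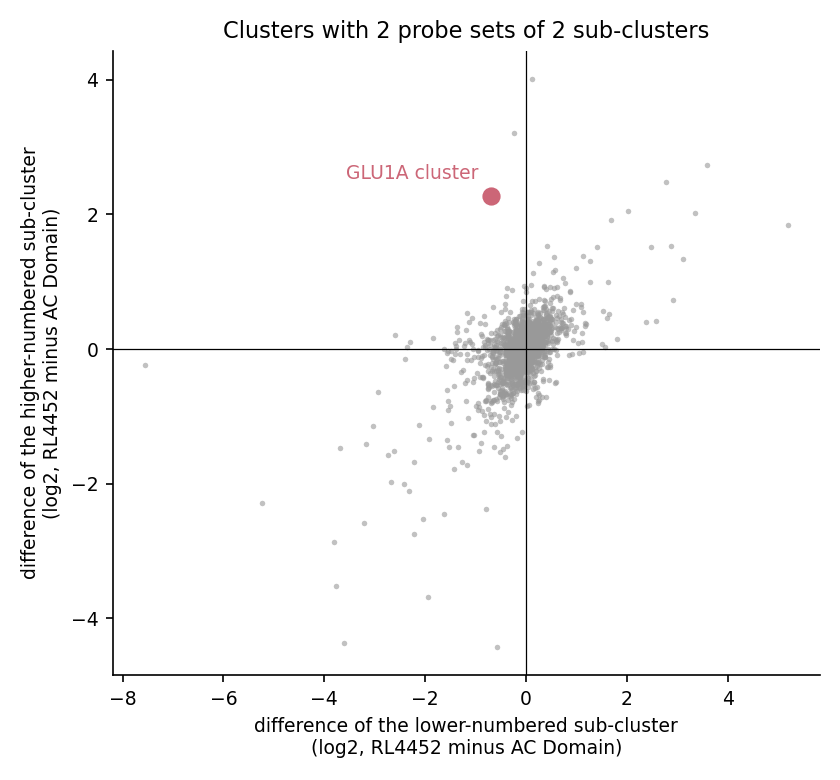
Each grey point is a cluster with 2 probe sets from 2 sub-clusters, both above the negative controls on at least 2 arrays (n = 1621). The horizontal axis gives the log2 difference, RL4452 minus AC Domain, of the lower-numbered sub-cluster and the vertical axis that of the higher-numbered one. The GLU1A cluster, in red, lay at -0.69 and 2.28, in the quadrant of opposite signs.

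The other GLU1 genes could not be followed by name. RefSeq lists GLU1B (LOC780590), GLU1C (LOC780591) and GLU1D (LOC100682423) beside GLU1A in the wheat assembly IWGSC CS RefSeq v2.1, and 0 probe sets are annotated to any of these. GLU1B lies on the same chromosome as GLU1A, with 11 annotated genes between them, and GLU1C and GLU1D lie on others. Of the 50 annotated genes on each side of GLU1A, 0 of 100 had a named probe set, so that levels of neighbouring genes were not analysed here. The copies of GLU1 in the wheat genomes are similar in sequence, and signal from them cannot be separated by name on this array.

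Probe sets with the most similar profile over the 4 arrays were ranked by Euclidean distance between log2 values after subtracting each probe set's own mean. Of 37044 probe sets above the negative controls on at least 2 arrays, the closest to Ta.4601.2.S1_at was Ta.11314.1.S1_at, which has no gene name (distance 0.187). It had log2 intensities of 5.81 and 5.57 in AC Domain and 8.11 and 8.17 in RL4452. TaAffx.5511.1.A1_at, Ta.10328.1.S1_at and TaAffx.12972.1.A1_at, also without a name, had distances of 0.233, 0.243 and 0.244.

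Among named genes the closest profile was that of LOC542941 (distance 0.232, difference 2.29), followed by granule-bound starch synthase I (GBSS-I, LOC543395, distance 0.264). GBSS-I makes amylose in the endosperm, and its log2 intensities were 8.48 and 7.93 in AC Domain and 10.71 and 10.46 in RL4452. LOC543060 came next (distance 0.566), and LOC542796, LOC543114 and LOC543137 were further away, with distances of 0.854 to 1.04. With 4 arrays in 2 genotypes, a difference of similar size with little spread between replicates is enough to place a probe set near GLU1A. Pearson's r over the 4 arrays was between 0.953 and 1.00 for these 10 probe sets.

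Distances to Ta.4601.1.S1_s_at, which differed less between the genotypes, were smaller. The 4 nearest without a name had distances of 0.033 to 0.037. The named genes nearest to it were LOC543461 (distance 0.047), LOC542793 (0.124), the glyoxalase gene lgul (LOC542984, 0.153), LOC100037613 (0.171), LOC543246 (0.187) and HGGT (LOC543094, 0.193), an enzyme of tocotrienol synthesis. LOC543461 (Ta.6301.2.S1_a_at) had log2 intensities of 8.67 and 8.88 in AC Domain and 8.04 and 8.18 in RL4452. Differences of these 6 genes ran from -0.85 to -0.61.

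**Figure D4:**
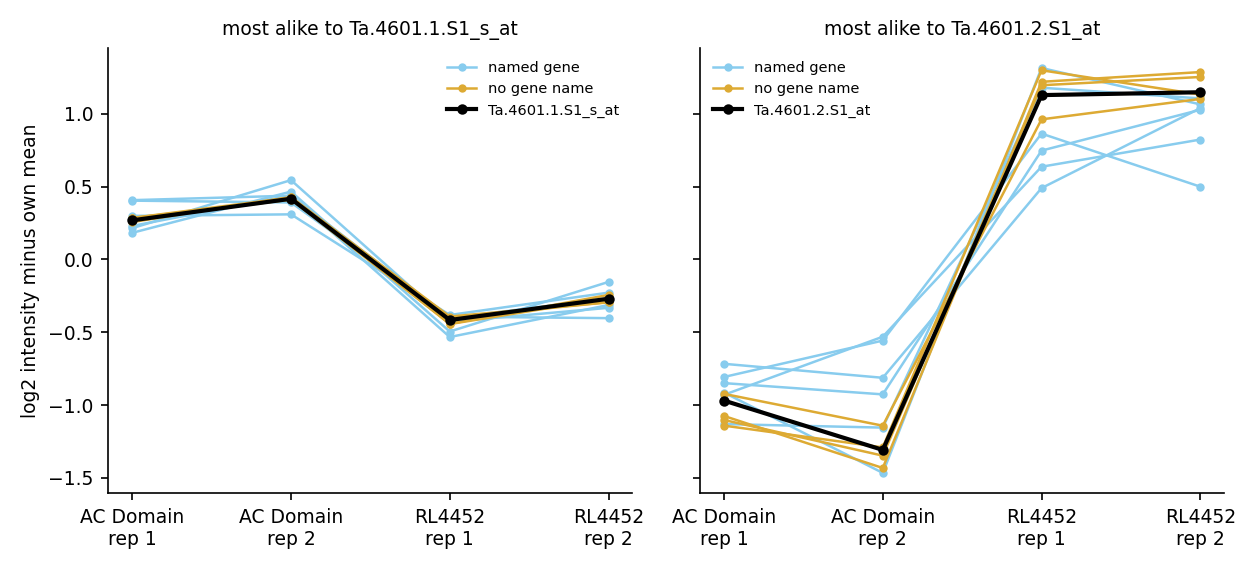
Log2 intensity minus the probe set's own mean (vertical axis) on each array (horizontal axis) for Ta.4601.1.S1_s_at (left) and Ta.4601.2.S1_at (right), in black, with the 6 nearest named genes in blue and the 4 nearest probe sets without a name in yellow. Lines join the values of 1 probe set. The unnamed profiles lay within a distance of 0.037 of Ta.4601.1.S1_s_at and of 0.244 of Ta.4601.2.S1_at.

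Genes around the substrate of GLU1 were sparse in the annotation. They were read from a limma fit of all probe sets, in which 489 passed an adjusted p under 0.05 (0.800% of those tested, with 0.224% higher and 0.576% lower in RL4452) and 9.16% had an unadjusted p under 0.05. For benzoxazinoid synthesis the name patterns found 2 probe sets of 1 gene, TSA (LOC542768), the alpha subunit of tryptophan synthase, which forms indole. The enzyme that opens the benzoxazinoid pathway in maize is a relative of this subunit. With limma 0 of the 2 passed in either direction (1 at an unadjusted p under 0.05, against 9.16% of all probe sets). Ta.28714.1.S1_at had log2 levels of 12.44 ± 0.19 in AC Domain and 12.46 ± 0.06 in RL4452 (SD, n = 2), a difference of 0.02 ± 0.18 (standard error of the limma fit, adjusted p = 0.986). Ta.28714.1.A1_s_at had 5.55 ± 0.53 in AC Domain and 4.44 ± 0.19 in RL4452 (SD, n = 2), a difference of -1.11 ± 0.30 (limma, adjusted p = 0.337). The mean level in RL4452 lay below the negative control level of 4.48.

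Other glycoside hydrolases were represented by 7 probe sets of 5 genes, and 0 passed in either direction (limma, 1 at an unadjusted p under 0.05, against 9.16% of all probe sets). With all 4 arrays 7 of 7 differences were above 0, against 58.4% of all probe sets, and their median was 0.23 against 0.05. Without RL4452 replicate 1 only 4 of 7 were above 0 (median 0.05), with BMY1, XTH and 1 probe set of 6-FEH below. After median centring or quantile normalisation that of LOC543415 was below 0. The fructan exohydrolase 6-FEH, which trims fructan, had 3 probe sets. Ta.9641.1.A1_a_at had 8.33 ± 0.08 in AC Domain and 9.56 ± 0.17 in RL4452 (SD, n = 2), a difference of 1.23 ± 0.18 (limma, adjusted p = 0.0855). The other two, Ta.30950.1.A1_x_at and TaAffx.93410.1.S1_at, had 1.16 ± 1.11 and 0.78 ± 0.46. Both depended on which RL4452 array was kept. The first was -0.45 without RL4452 replicate 1 and 2.77 without replicate 2, and the second 0.12 and 1.44. Another fructan exohydrolase, 1-FEH, had 0.22 ± 0.19, and beta-amylase BMY1, which cuts maltose from starch, had 0.17 ± 0.25. XTH, which remodels cell wall xyloglucan, had 0.23 ± 0.41. LOC543415, with both IVR1 and atpA among its synonyms, had 0.03 ± 0.17 at a signal below the negative control level. By the name atpA its probe set is counted among the plastid proteins below as well.

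Defence genes numbered 15 probe sets of 8 genes, of which 0 passed in either direction (limma, 3 at an unadjusted p under 0.05, against 9.16% of all probe sets). In 7 the difference was above 0 (median -0.08), and the median was 0.03 after quantile normalisation and ran from -0.11 to 0.07 when 1 array was left out. The xylanase inhibitor XIP-I had 0.76 ± 0.18 and 0.58 ± 0.19 in its 2 probe sets (limma, adjusted p = 0.250 and 0.453). The thionin THI1.1, an antimicrobial seed peptide, had -1.30 ± 0.40 and -0.50 ± 0.23 (limma, adjusted p = 0.415 and 0.620). The first was -1.86 without RL4452 replicate 1 (limma, adjusted p = 0.0304) and -0.74 without RL4452 replicate 2 (limma, adjusted p = 0.203). The value of -1.86 rests on 1 RL4452 array, the one with the aborted wash, at an intensity of 24.4 against a negative control level of 22.3. The lipid transfer protein LTP3 had -0.30 ± 0.50 in its bright probe set and 0.43 ± 0.24 in its dim one. In the 4 probe sets of Prx1 differences ran from -0.15 to 0.21, with 2 above 0 and 2 below.

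Because GLU1 enzymes are plastid proteins, other plastid proteins were listed as well, in 34 probe sets of 6 genes. With limma 1 was higher in RL4452 and 0 were lower, against 0.224% and 0.576% over the whole array (unadjusted p under 0.05 in 2, against 9.16%). The call was GBSS-I, with 2.38 ± 0.25 (limma, adjusted p = 0.0344), which missed the threshold on log2(intensity + 16) (adjusted p = 0.111) and without either AC Domain array (adjusted p = 0.221 and 0.350). Of these 34 probe sets 28 belong to rbcl, the large subunit of Rubisco. Its brightest, Ta.24976.1.S1_x_at and TaAffx.128414.1.A1_x_at, had -0.09 ± 0.16 and -0.08 ± 0.16. Differences for the 3 other rbcl probe sets named, Ta.3807.1.A1_at, TaAffx.128414.130.S1_at and TaAffx.128414.15.S1_at, were -0.54 ± 0.17, -0.35 ± 0.29 and 0.60 ± 0.30. The last of these was above the negative control level on 1 of 4 arrays, RL4452 replicate 2, and its difference was 0.23 without that array. In 13 of the 34 the difference was above 0 (median -0.04), against 58.4% of all probe sets. Without AC Domain replicate 1 it was 18 of 34 (median 0.05).

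**Figure D5:**
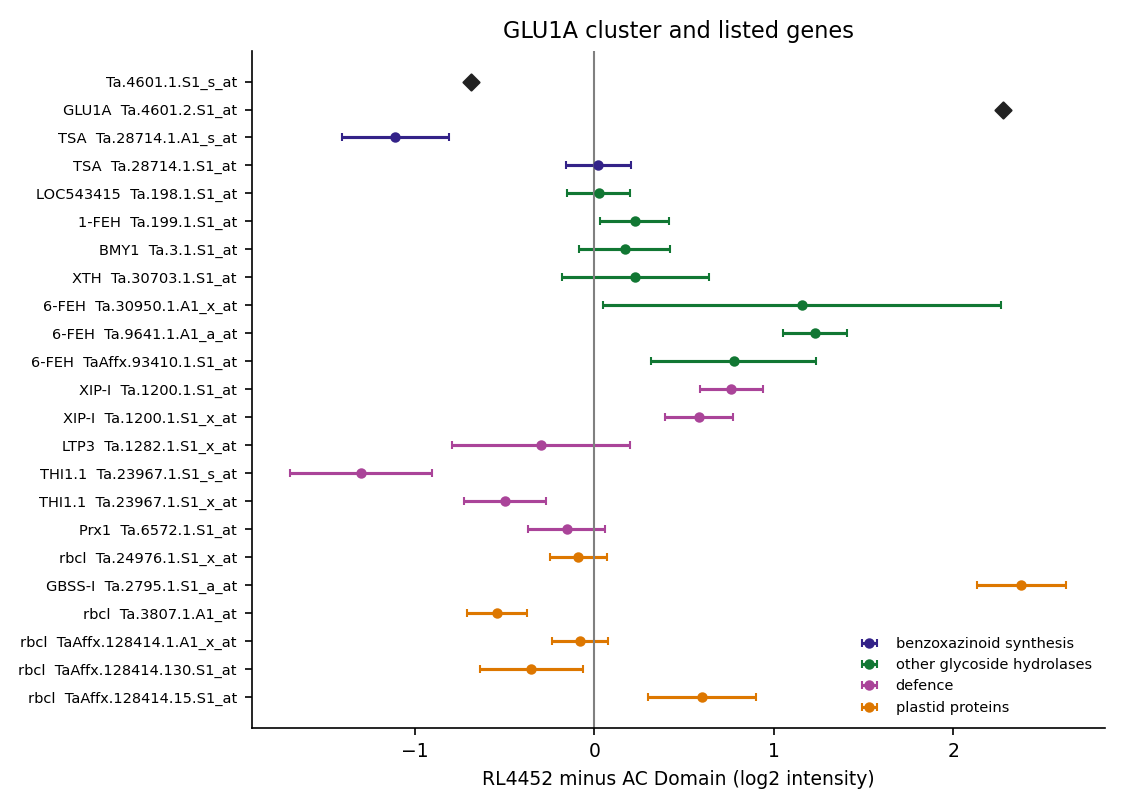
Difference in log2 intensity, RL4452 minus AC Domain, for both probe sets of the GLU1A cluster (black diamonds, no error drawn) and the listed genes (points with standard errors of the limma fit), coloured by list. Ta.4601.2.S1_at (2.28) and GBSS-I (2.38) lay furthest to the right.

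Signals of marker names were listed beside the tissue label. They cannot check it, since in each list with probe sets most lay above the negative control level on no array. The green pericarp list, which is rbcl alone, had a summed intensity of 52631 and 50839 in AC Domain and of 49267 and 48515 in RL4452 (replicates 1 and 2). Of its 28 probe sets 18 lay above the negative control level on no array, and the brightest 2 made up 98.3% to 98.6% of the sum, at intensities up to 25900.2, the highest of any wheat probe set. The endosperm list of 19 probe sets summed to 3300.1 and 3427 in AC Domain and to 4960 and 4335 in RL4452, and 10 of the 19 lay above the negative control level on no array. Without GBSS-I the sums were 2944 and 3184 against 3287 and 2929, which overlap. AGP-S alone gave 1659 and 1750 against 1626 and 1326 of these sums. In 15 of all 19 probe sets the difference was above 0 and in 4 below (median 0.14), against 58.4% above 0 over all probe sets. With limma 1 of the 19 passed, GBSS-I. For the maturing embryo 6 of 10, and for the anther 3 of 4, were above that level on no array, and their sums ran from 211 to 301 and from 74.9 to 88.7. Names of nucellus and pericarp proteases found 0 probe sets. The signal of the 18S rRNA control was 2586 and 1914 in AC Domain and 191 and 432 in RL4452, and so moved with the genotypes. The part of the endosperm sums and of this control in the differences of the GLU1A cluster was not tested.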

How the data were processed

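The deposited values are probe set intensities on a linear scale from RMA, per the submitters' processing notes (no version given). RMA corrects background, normalises arrays and summarises probes. A mismatch under some probes can lower a signal, and no probe sequences were examined here. Per the file headers, the run files hold instrument settings as text. Intensities were log2-transformed, and 175 control probe sets of 61290 were left out. limma 3.58.1 in R 4.3.3 (lmFit, eBayes, two-sided, Benjamini-Hochberg over 61115 probe sets) was fitted with genotype alone, and was checked on simulated data. The fit had 2 residual degrees of freedom and 2.97 prior ones. An exact permutation test of 2 against 2 arrays cannot go below 0.333. The number of arrays limits the precision. Median intensity per array was 31.9 to 33.7.

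Names came from the platform annotation through RefSeq (1273 probe sets, 771 genes, 770 matched). Replicate numbers mark shared projects in the run files, and same-numbered arrays deviated together (r = 0.398 across probe sets), so the pairing was taken from there. Members, lists and the rule for named genes were chosen with earlier results of these data known. The rule named every cluster member, the 6 named and 4 unnamed probe sets nearest in profile, and all list members up to 8, otherwise the 4 largest differences and the 2 brightest. In the marker lists summed intensities stand in for named genes. Alternatives changed scaling, pseudocount, block, filter, variance trend, controls and the arrays used.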

Additional observations from a re-analysis of the deposited data

How the results depend on the processing

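The difference of Ta.4601.2.S1_at kept its sign under every setting run, with 2.22 after median centring, 2.37 after quantile normalisation, 2.19 on log2(intensity + 16) and 2.11 to 2.45 when 1 array was left out. So did that of Ta.4601.1.S1_s_at (-0.75, -0.67, -0.68, and -0.76 to -0.61) and the distance between both differences (2.96, 3.04, 2.87, and 2.72 to 3.21). The arrays of the genotypes did not overlap in either probe set, so leaving out 1 array could not change a sign. The gene was also chosen by its difference on these arrays, so the kept signs are no independent support. With the replicate number as a replicate block both differences and their distance were 2.28, -0.69 and 2.96, as without it. Each replicate number holds 1 array of each genotype, so the block could not move them. With the block 667 probe sets passed, against 489. The block changed no call in the text.

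The count of calls was less stable: 143 passed on log2(intensity + 16), 44 higher and 99 lower in RL4452, and in the pathway and marker lists 0 passed, against 1. When 1 array was left out, 0 to 1031 probe sets passed, 0 to 297 higher and 0 to 742 lower. Among these, 0 passed with limma without AC Domain replicate 1 or 2, when the spread comes from the RL4452 pair alone (2999 and 2441 at an unadjusted p under 0.05). In the pathway lists 0 to 2 passed and in the marker lists 0 to 1.

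Sign changes were limited to small differences or spread-out arrays, and the cause was not tested. After median centring TSA (Ta.28714.1.S1_at) had -0.0367 and LOC543415 -0.0343, and after quantile normalisation LOC543415 had -0.0449 and rbcl (Ta.24976.1.S1_x_at) 0.0109. With 1 array left out, TSA ran from -0.11 to 0.159, LOC543415 from -0.0662 to 0.117, BMY1 from -0.11 to 0.445, XTH from -0.30 to 0.757, 6-FEH (Ta.30950.1.A1_x_at) from -0.45 to 2.77, LTP3 from -1.0 to 0.41 and Prx1 from -0.385 to 0.0762.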
